A study of Mus musculus with 7 samples.

Results

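The 9 genes described here encode the class I phosphoinositide 3-kinase (PI3K) subunits: the catalytic subunits Pik3ca, Pik3cb, Pik3cd and Pik3cg, and the regulatory subunits Pik3r1, Pik3r2, Pik3r3, Pik3r5 and Pik3r6. They were found by gene symbol among the 27138 features of the deposited count table, and all 9 had enough reads to be among the 16910 features tested. Pik3r5 was singled out because its level was lower in the mutant libraries. Its difference between the groups is therefore given as a description, without a p-value, and nothing is read from its place in the counts of calls.

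Class I PI3Ks are heterodimers of a catalytic and a regulatory subunit that phosphorylate membrane phosphoinositides to make the signalling lipid PIP3, which recruits kinases such as Akt. In class IA, the alpha, beta or delta catalytic subunit pairs with a regulatory subunit that carries SH2 domains and docks on phosphorylated tyrosines of receptors and adaptors. In class IB, the gamma catalytic subunit, product of Pik3cg, pairs with the product of Pik3r5 or of Pik3r6 and is switched on by G protein beta-gamma subunits and Ras downstream of G protein-coupled receptors. The gamma and delta enzymes are best known from blood and immune cells, whereas the alpha enzyme acts in most tissues, the pancreas included, downstream of insulin and growth factor receptors.

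RNA with poly(A) tails was sequenced from mouse embryonic pancreas at E15.5, in 3 cKO and 4 WT libraries, each from its own animal. The cKO embryos carried Pdx1Cre and mLINC00673 fl/fl, that is, floxed alleles of 2610035D17Rik, which is the mouse counterpart of LINC00673, a human long non-coding RNA. WT embryos carried the same floxed alleles without Cre, so an effect of the deletion and an effect of the Cre transgene cannot be told apart. Pdx1 is active in the pancreatic epithelium, so the mesenchymal, vascular, nerve and blood cells of a dissected pancreas keep the gene, and in such bulk tissue fewer cells of a type and less RNA per cell cannot be told apart. The targeted gene had 2.01, 3.37 and 2.26 CPM (counts scaled to a common library total) in cKO replicates 1 to 3, against 9.06, 8.75, 7.92 and 8.82 CPM in WT replicates 1 to 4, and no cKO library reached a WT library.

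The libraries held 17028268 to 17757922 counts in cKO and 14883918 to 17767373 counts in WT. CPM values were scaled with TMM factors, and means are given ± SD with n = 3 for cKO and n = 4 for WT. The edgeR p-values set the difference between the groups against the spread between animals, which is estimated in part across genes. Pancreatic epithelial markers were present in every library, for example the acinar protease gene Cpa1 at 4984 ± 840 CPM in cKO and 5730 ± 2067 CPM in WT. Both groups held a library that stood apart. cKO replicate 1 and WT replicate 4 had summed liver marker levels of 1944 and 1253 CPM, against 378 to 392 CPM in the other cKO libraries and 305 to 419 CPM in the other WT libraries, and they were also the highest in erythroid markers.

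The sequences upstream of Pik3r5 and of its catalytic partner Pik3cg are shown because the level of Pik3r5 against that of Pik3cg is the comparison on which the account turns. Each is the 250 bases before an annotated transcription start, written 5′ to 3′ on the gene's own strand, from RefSeq on GRCm38.p6, another build than the mm39 named by the submitters. Pik3r5 lies on the plus strand (chr11:68431875-68432124). Pik3cg lies on the minus strand and has 2 annotated starts, whose windows overlap (chr12:32208660-32208909 for the first and chr12:32208471-32208720 for the second). Capitals mark matches on either strand to GGGCGG, the GC box bound by Sp1, and to GAGGAA, the purine-rich core bound by PU.1 in myeloid promoters.
Pik3r5: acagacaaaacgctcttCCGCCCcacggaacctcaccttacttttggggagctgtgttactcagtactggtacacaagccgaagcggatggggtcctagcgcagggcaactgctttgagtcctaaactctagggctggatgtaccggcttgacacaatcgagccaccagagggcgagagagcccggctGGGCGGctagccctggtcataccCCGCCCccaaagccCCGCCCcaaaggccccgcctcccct
Pik3cg first start: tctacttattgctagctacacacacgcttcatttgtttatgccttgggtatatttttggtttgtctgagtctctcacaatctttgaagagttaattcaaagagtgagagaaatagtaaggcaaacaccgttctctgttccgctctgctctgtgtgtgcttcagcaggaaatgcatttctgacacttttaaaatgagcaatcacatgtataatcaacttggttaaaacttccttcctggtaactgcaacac
Pik3cg second start: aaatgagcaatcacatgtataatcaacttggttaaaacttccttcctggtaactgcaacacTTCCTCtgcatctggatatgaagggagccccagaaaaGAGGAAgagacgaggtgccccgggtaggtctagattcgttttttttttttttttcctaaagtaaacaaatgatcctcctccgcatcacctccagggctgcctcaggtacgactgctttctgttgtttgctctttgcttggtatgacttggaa

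The Pik3r5 window held 14 CpG dinucleotides, 4 matches to GGGCGG and 0 to GAGGAA. The Pik3cg windows held 3 and 5 CpG dinucleotides and 0 matches to GGGCGG, and the second held 2 matches to GAGGAA. No printed match overlapped another. Over 32851 upstream windows of the same length, the median was 6 CpG dinucleotides, 32.7% held GGGCGG and 4.09% held it at least 4 times, while 23.3% held GAGGAA and 3.54% at least 2 times. Windows were found for 8 of the 9 subunit genes, 14 in all. The gene without a window was Pik3r6, the other class IB regulatory subunit. The windows with the most CpG dinucleotides belonged to the class IA genes Pik3cb with 32, Pik3r1 with 30 at its first start and Pik3r2 with 29. These matches describe the letters only, and no binding was measured in this study.

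Pik3r5, whose complex with the gamma catalytic subunit is the more responsive of the class IB pair to G protein beta-gamma subunits, was lower in all 3 cKO libraries than in any of the 4 WT libraries. It had 66, 79 and 84 counts in cKO replicates 1 to 3, against 143, 180, 146 and 150 counts in WT replicates 1 to 4. On the scaled level these were 3.90, 4.67 and 4.63 CPM in cKO, against 7.72, 10.7, 8.44 and 10.6 CPM in WT. The highest cKO library therefore stayed well below the lowest WT library. The means were 4.40 ± 0.438 CPM in cKO and 9.36 ± 1.51 CPM in WT, and edgeR fitted a log2 fold change of −1.09, with an SE of 0.184 and a 95% interval of −1.50 to −0.67. That leaves 47.1% of the WT level (95% interval 35.3% to 62.8%). Because Pik3r5 was chosen for this difference, the fold may be overstated and the intervals do not hold their stated coverage. Without cKO replicate 1 and WT replicate 4, the libraries high in liver and erythroid markers, the log2 fold change was −0.94, in a fit chosen after the data were seen.

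**Figure D1:**
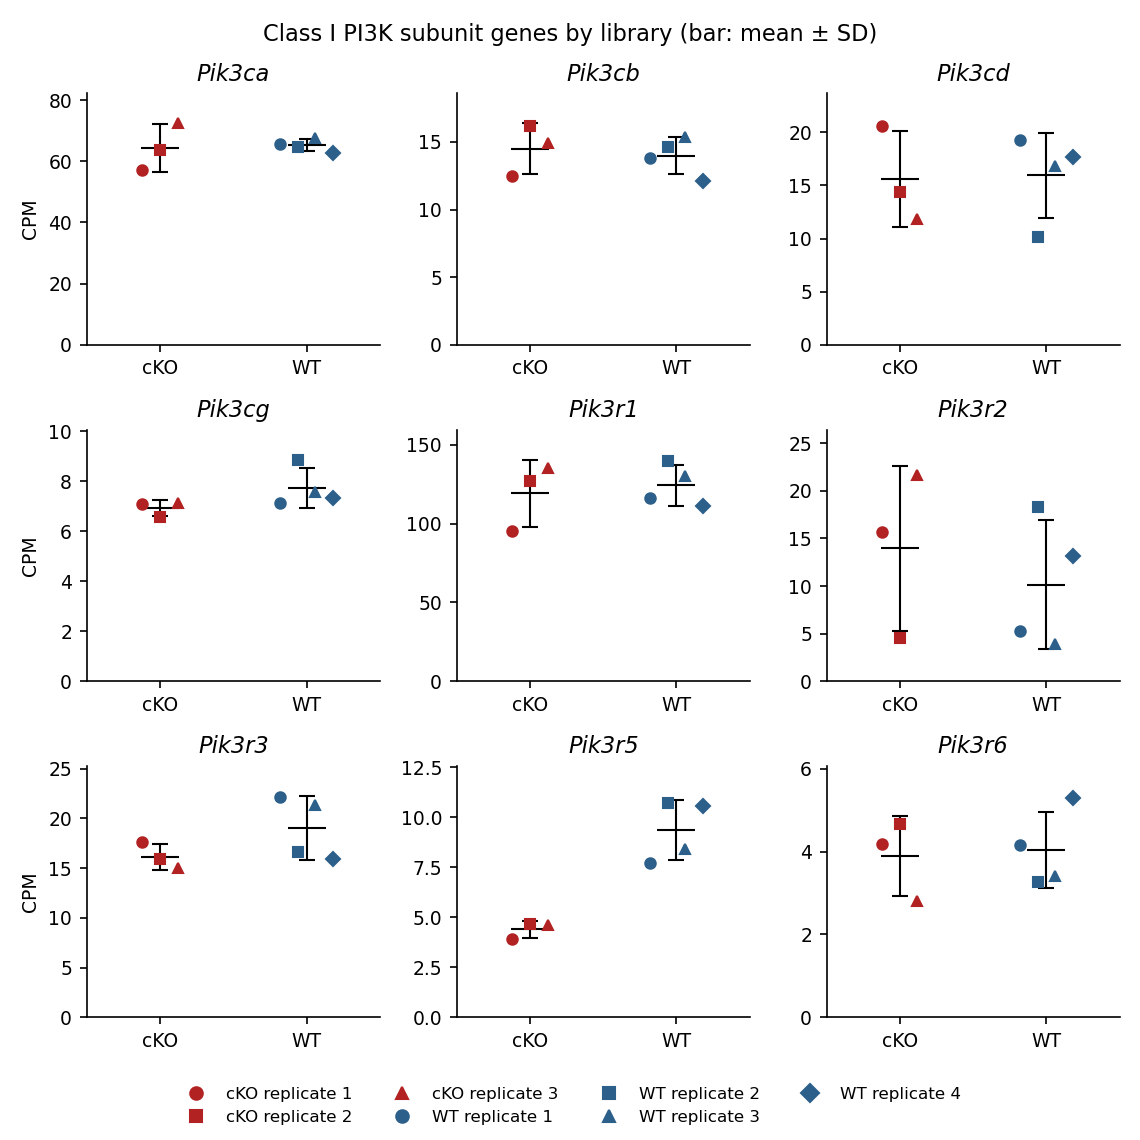
CPM of the 9 class I PI3K subunit genes in each library (points), with the group mean ± SD as bars, in 3 cKO and 4 WT libraries. Pik3r5 lies between 3.90 and 4.67 CPM in cKO and between 7.72 and 10.7 CPM in WT, while Pik3r2 is spread over 4.55 to 21.7 CPM in cKO and 3.87 to 18.3 CPM in WT.

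Its paralog Pik3r6, the other class IB regulatory subunit and its immediate neighbour on the plus strand of chromosome 11, had 4.19, 4.67 and 2.81 CPM in cKO, against 4.15, 3.27, 3.41 and 5.29 CPM in WT. The cKO and WT libraries were interleaved. Its log2 difference of −0.05 (SE 0.258, 95% interval −0.63 to 0.54), 51 to 79 counts per library, still leaves room for a sizeable shift either way. The shared catalytic partner Pik3cg had 7.08, 6.56 and 7.12 CPM in cKO, against 7.12, 8.87, 7.57 and 7.34 CPM in WT. Its groups touch without overlapping, since the highest cKO library and the lowest WT library print as the same value, and with library totals in place of TMM-scaled totals they overlap (7.26 CPM in cKO replicate 3 and 6.99 CPM in WT replicate 4). The means were 6.92 ± 0.310 CPM in cKO and 7.73 ± 0.785 CPM in WT, and the log2 fold change of −0.16 (SE 0.149, 95% interval −0.50 to 0.18) did not pass the test over all features (edgeR adjusted p = 1.00).

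After Benjamini-Hochberg adjustment of edgeR's quasi-likelihood p-values, 0 of the 9 subunit genes passed the threshold of 0.05, where 0.00591% of all tested features did. limma-voom also called 0 of the 9, and DESeq2 called 1, Pik3r5, where it called 0.0771% of the 16865 features it tested. At an unadjusted p under 0.05 edgeR listed 1 of the 9, again Pik3r5, where it listed 1.38% of all tested features. Groups did not overlap, with cKO lower, for 2 of the 9, Pik3r5 and Pik3cg, where this held for 1.43% of all tested features (2.72% in either direction). Pik3r5 was chosen on the values behind these counts, so they are no evidence about it. The other 8 genes had an edgeR adjusted p of 1.00 each. In the fit, 2 of the 9 were higher and 7 lower in cKO with a median log2 fold change of −0.05, where 46.0% of all features were higher, 54.0% lower and the median was −0.01.

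**Figure D2:**
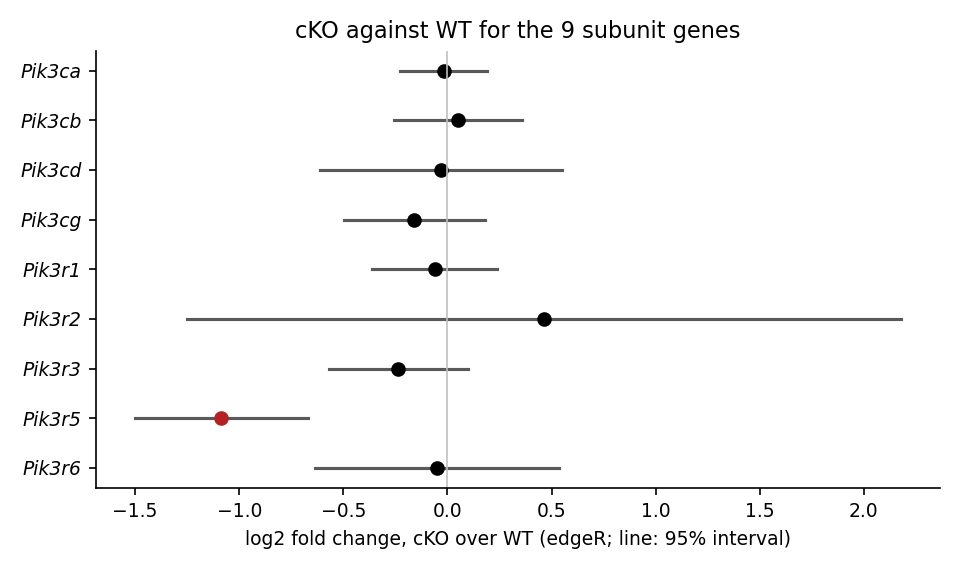
Log2 fold change of each subunit gene, cKO over WT, from edgeR (points) with its 95% interval (lines), fitted on 3 cKO and 4 WT libraries. The interval of Pik3r5, the gene chosen on this contrast, runs from −1.50 to −0.67, and the intervals of the other 8 genes span 0, that of Pik3r2 from −1.25 to 2.18.

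The products of Pik3r5 and Pik3r6 pair with the same catalytic subunit, so their levels were also set against that of Pik3cg within each library, as CPM per kilobase of annotated exon. The ratio of Pik3r5 to Pik3cg was 0.835, 1.08 and 0.989 in cKO, against 1.64, 1.83, 1.69 and 2.19 in WT. The groups did not overlap, with means of 0.968 ± 0.124 in cKO and 1.84 ± 0.247 in WT. The ratio of Pik3r6 to Pik3cg overlapped between the groups, at 1.32 ± 0.372 in cKO and 1.24 ± 0.359 in WT. The ratio of Pik3r5 to Pik3r6 was 0.607, 0.653 and 1.07 in cKO, against 1.21, 2.14, 1.61 and 1.31 in WT, so Pik3r5 was the more abundant of the pair in all 4 WT libraries and in 1 of the 3 cKO libraries. Summed, the ratio of Pik3r5 plus Pik3r6 to Pik3cg was 2.29 ± 0.419 in cKO and 3.08 ± 0.545 in WT, and these groups overlapped. All 3 class IB genes together made up 8.35% ± 1.32 of the summed class I level in cKO and 11.0% ± 1.29 in WT. These ratios carry the difference in Pik3r5 that chose the gene, and so were not tested.

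Ordered by level per length over the 7 libraries, the class IA genes came first. Pik3r1, the main class IA regulatory subunit, averaged 12.1 CPM per kilobase (9.45 to 13.8), and Pik3ca, the alpha catalytic subunit, 7.14 (6.27 to 7.98). Every library of Pik3r1 lay above every library of Pik3ca, and every library of Pik3ca above every library of the next gene. Pik3r3, a smaller class IA regulatory subunit, averaged 3.36 CPM per kilobase, Pik3r2 2.82, Pik3cd 2.53, Pik3cb 1.98, Pik3r5 1.30, Pik3r6 1.10 and Pik3cg 0.876. From Pik3r3 on, the libraries of each gene overlapped those of the next gene in the order. Pik3r3 shares 1289 of its 5300 annotated exon bases with Gm49337 on the same strand, which has no row of counts. How reads from these bases were assigned is not known. Pik3r5 had 0.793 ± 0.0789 CPM per kilobase in cKO and 1.69 ± 0.273 CPM per kilobase in WT, which placed it at rank 9, 8 and 8 of the 9 genes in cKO replicates 1 to 3 and at rank 6 in each WT library.

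**Figure D3:**
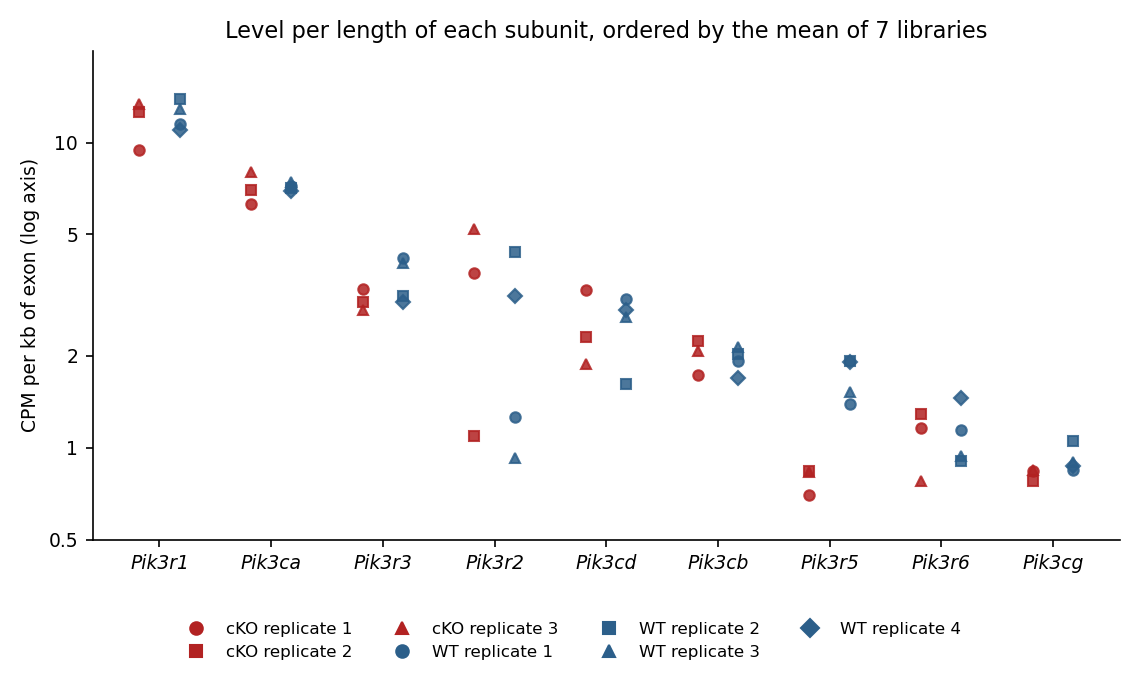
CPM per kilobase of exon (log axis) of each subunit gene in 3 cKO and 4 WT libraries, ordered by the mean of the 7 libraries. Pik3r1 and Pik3ca stand above the rest in every library, at 9.45 to 13.8 and 6.27 to 7.98, and the class IB genes Pik3r5, Pik3r6 and Pik3cg lie at the low end.

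Among the catalytic subunits, Pik3ca had 57.0, 63.6 and 72.6 CPM in cKO, against 65.7, 64.7, 67.6 and 62.9 CPM in WT. The cKO libraries spanned the whole WT range and the log2 difference was −0.02 (SE 0.0925, 95% interval −0.23 to 0.19), the narrowest interval of the 9 genes. Pik3cb, the beta catalytic subunit, which can also respond to G protein beta-gamma subunits, had 12.5, 16.1 and 14.9 CPM in cKO, against 13.8, 14.6, 15.4 and 12.1 CPM in WT. Its groups overlapped, and the log2 difference was 0.05 (SE 0.136, 95% interval −0.26 to 0.36). Pik3cd, the delta subunit, had 20.6, 14.4 and 11.8 CPM in cKO, against 19.3, 10.1, 16.8 and 17.6 CPM in WT. Its spread was similar in both groups, 15.6 ± 4.51 CPM in cKO and 16.0 ± 4.02 CPM in WT, with a log2 fold change of −0.03 (95% interval −0.61 to 0.55). As a share of the summed catalytic level per length, Pik3ca made up 57.0% ± 5.38 in cKO and 57.1% ± 2.16 in WT, and Pik3cg 6.62% ± 0.304 in cKO and 7.32% ± 1.08 in WT.

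Among the class IA regulatory subunits, Pik3r1 had 95.3, 127 and 135 CPM in cKO, against 116, 140, 130 and 111 CPM in WT, and cKO replicate 1 was the lowest library. Its log2 fold change was −0.06 (SE 0.133, 95% interval −0.36 to 0.24). Pik3r3 had 17.6, 15.9 and 15.0 CPM in cKO, against 22.1, 16.6, 21.4 and 15.9 CPM in WT. WT replicates 1 and 3 were the highest libraries and WT replicates 2 and 4 lay among the cKO libraries, and the log2 fold change was −0.24 (SE 0.147, 95% interval −0.57 to 0.10). Of the summed regulatory level per length, Pik3r1 made up 58.9% ± 7.78 in cKO and 58.4% ± 4.10 in WT, and Pik3r5 3.97% ± 0.443 in cKO and 7.96% ± 0.945 in WT. The ratio of class IA regulatory to class IA catalytic levels was 1.57 ± 0.197 in cKO and 1.58 ± 0.270 in WT, and these groups overlapped.

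**Figure D4:**
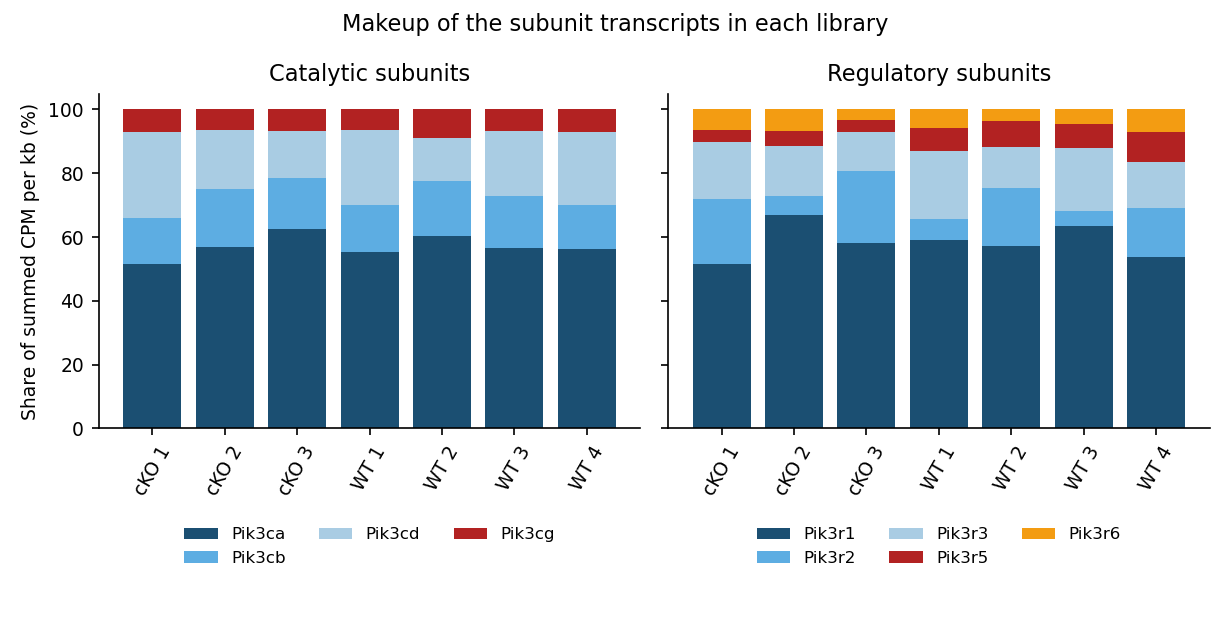
Share of each gene in the summed CPM per kilobase of the catalytic subunits (left) and of the regulatory subunits (right), in percent, for 3 cKO and 4 WT libraries. The Pik3r5 segment takes 3.62% to 4.47% of the regulatory level in cKO and 7.12% to 9.28% in WT, while the Pik3r2 segment varies from library to library in both groups.

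Pik3r2, a class IA regulatory subunit that is found in most tissues, was by far the most variable of the 9 genes. It had 15.6, 4.55 and 21.7 CPM in cKO, against 5.29, 18.3, 3.87 and 13.1 CPM in WT. High libraries (cKO replicates 1 and 3, WT replicates 2 and 4) and low libraries (cKO replicate 2, WT replicates 1 and 3) occurred in both groups. The highest library was 5.60-fold above the lowest, and the counts of 393 (95% exact Poisson interval 355 to 434) and 67 (51.9 to 85.1) differed by far more than counting error, which is all that these intervals cover. The SD of log2 CPM within groups was 1.10, above 97.4% of the 3876 features of comparable level. The log2 fold change of 0.46 (SE 0.710, 95% interval −1.25 to 2.18) had the widest interval of the 9 genes. Pik3cd also varied more than most, with a within-group SD of 0.41 on the log2 scale, above 90.4% of features of comparable level, whereas Pik3r5 had 0.20 (above 34.7%) and Pik3cg 0.12 (above 6.07%). Pik3r5 was chosen for a difference between its groups, a choice that favours a small spread, so its value is only a description.

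The spread of Pik3r2 moved with other values, all looked at after the data were seen. The summed level of erythroid markers was 2640, 1253 and 1727 CPM in cKO, against 912, 1735, 1135 and 2166 CPM in WT. The 4 libraries with the most Pik3r2 were the 4 with the most erythroid markers. Within these 4 the orders differed, and cKO replicate 3, the highest in Pik3r2, had the lowest erythroid sum of the 4 (1727 CPM). None of the 8 markers found was at 0 in any library. Alas2, the erythroid enzyme that starts haem synthesis, was the only marker of this list among the 10 features whose profile was nearest to that of Pik3r2, with 55.6, 28.0 and 40.4 CPM in cKO, against 19.2, 41.1, 24.0 and 43.6 CPM in WT. The root mean square difference of log2 CPM, each centred on its mean, was 0.597 for Alas2 and 0.411 for the nearest feature. That feature carries only a running number. The part of erythroid RNA in the spread of Pik3r2 was not tested. On chromosome 8, the adjoining gene Ifi30, a lysosomal thiol reductase, had 0.177, 0.177 and 1.05 CPM in cKO, against 4.37, 4.23, 3.64 and 0.776 CPM in WT, and a fitted log2 difference of −2.77 (SE 0.790, edgeR adjusted p = 1.00). Mast3, a kinase gene on its other side, had 13.0, 33.1 and 20.6 CPM in cKO, against 10.7, 25.8, 22.3 and 33.7 CPM in WT. The 4 libraries with the most Pik3r2 were not the 4 highest for either neighbour. Pik3r2 shares 45 annotated exon bases with 6330537M06Rik on the opposite strand, and the library protocol has no step that keeps the strand.

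**Figure D5:**
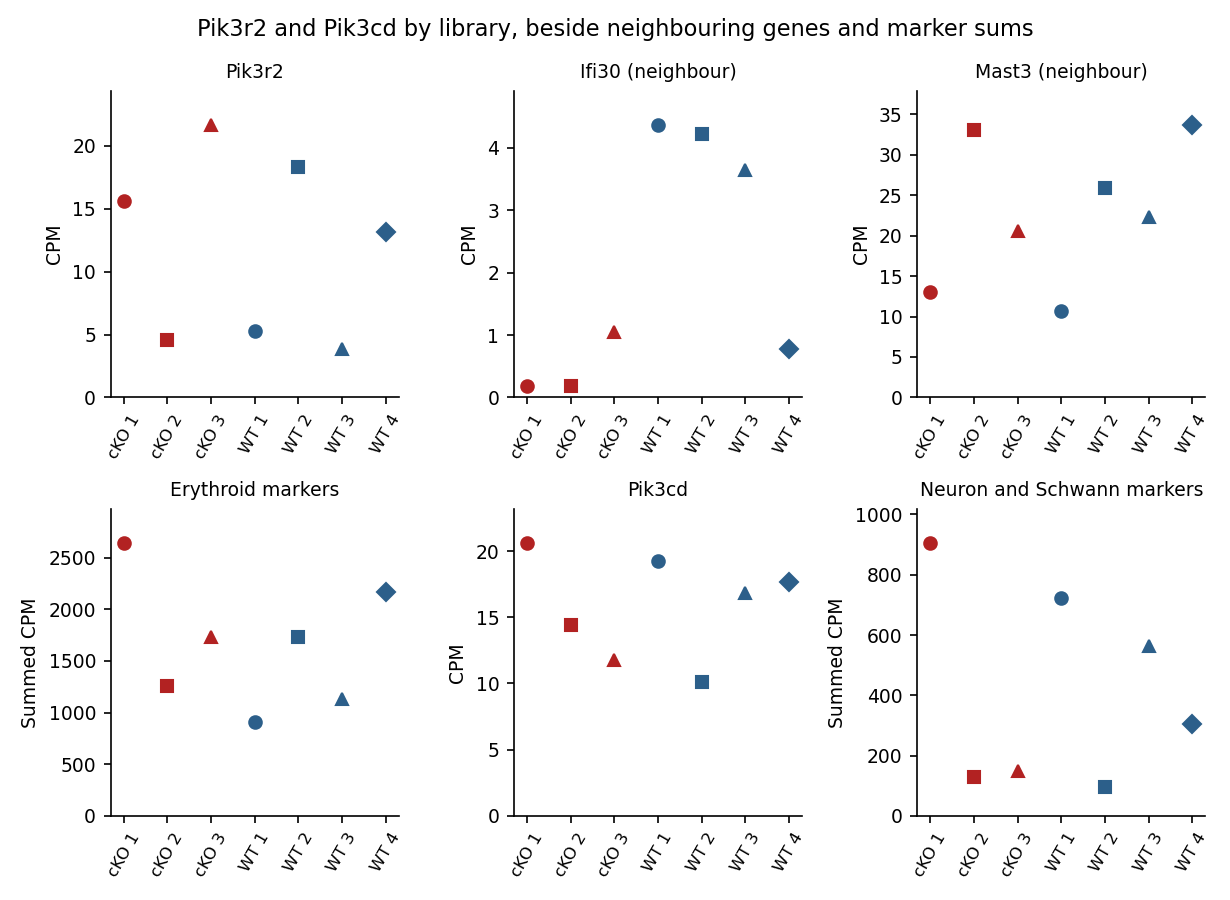
CPM of Pik3r2, its neighbours Ifi30 and Mast3, and Pik3cd, with the summed CPM of erythroid and of neuron and Schwann cell markers, in each of 3 cKO and 4 WT libraries. Pik3r2 and the erythroid sum are high in cKO replicates 1 and 3 and WT replicates 2 and 4, and Pik3cd and the neuronal sum are highest in cKO replicate 1 and lowest in WT replicate 2.

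Pik3cd moved with the summed level of neuron and Schwann cell markers, which was 905, 131 and 148 CPM in cKO, against 722, 97.6, 564 and 306 CPM in WT. The 4 libraries with the most Pik3cd (cKO replicate 1 and WT replicates 1, 3 and 4) were the 4 with the highest sum, and WT replicate 2 was the lowest in both. The 10 genes whose profile over the 7 libraries was nearest to that of Pik3cd, also looked up after the data were seen, were Nnat, Leng1, Spock2, Vps37d, Trpm2, Creld1, Stx1a, Tm7sf2, Mterf2 and Tsc22d3 in order of likeness. Of these, none is in the marker list, and they are not all known as nerve genes. The nearest, Nnat, which encodes the proteolipid neuronatin, had 304, 209 and 179 CPM in cKO, against 255, 147, 219 and 230 CPM in WT. The part of nerve RNA in the spread of Pik3cd was not tested.

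Since the gamma and delta enzymes are best known from leukocytes, markers of these cells were set beside Pik3r5. Summed macrophage and leukocyte markers were 447, 395 and 361 CPM in cKO, against 326, 339, 359 and 494 CPM in WT. The groups overlapped, 14 of the 15 markers were higher in the cKO fit with a median log2 fold change of 0.11, and 0 passed the edgeR threshold. Over all tested features 46.0% were higher in the fit. Markers of the same cells can move together, so the 15 are not separate observations, and the highest sum was in WT replicate 4. The only one of these 15 markers listed at an unadjusted p under 0.05, where 1.38% of all tested features were, was the Fc receptor gene Fcgr3. It had 9.65 ± 1.36 CPM in cKO and 7.40 ± 0.602 CPM in WT, and its groups did not overlap. The pan-leukocyte marker Ptprc had 8.66 ± 1.93 CPM in cKO and 7.91 ± 0.699 CPM in WT, and the macrophage receptor gene Csf1r 50.8 ± 2.15 CPM in cKO and 47.8 ± 4.07 CPM in WT. Neutrophil, mast cell and lymphoid markers summed to 16.2 to 56.8 CPM in cKO and 17.6 to 48.8 CPM in WT, and platelet and megakaryocyte markers to 32.0 to 45.6 CPM in cKO and 26.1 to 40.1 CPM in WT. Of the 8 tested in the first list, 7 were higher in the cKO fit and edgeR listed 0 at an unadjusted p under 0.05. Of the 6 tested in the second, 5 were higher and edgeR listed 1 at that threshold. The endothelial sum was 710 to 798 CPM in cKO and 700 to 830 CPM in WT. None of these sums was lower in every cKO library, as Pik3r5 was. The part of these cell types in the difference of Pik3r5 was not tested.

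The genes around Pik3r5 on chromosome 11 did not share its separation of the groups. Ntn1, the axon guidance gene netrin-1, had 125 ± 17.8 CPM in cKO and 138 ± 15.1 CPM in WT, a log2 fold change of −0.14. The antisense gene C78197 was close to the lower limit of detection at 0.583 ± 0.226 CPM in cKO and 0.401 ± 0.168 CPM in WT. On the other side, beyond Pik3r6, Mfsd6l, a transporter-like gene, had 2.68 ± 0.194 CPM in cKO and 2.57 ± 0.654 CPM in WT, and the non-muscle myosin gene Myh10 248 ± 36.7 CPM in cKO and 276 ± 38.5 CPM in WT, a log2 fold change of −0.15. Groups overlapped for each of these 4 genes, and none passed the edgeR threshold (adjusted p = 1.00). The deleted gene 2610035D17Rik lies on the same chromosome with 656 tested genes between. No exon of Pik3r5 overlaps that of another annotated gene.

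Profiles of 15501 features over the 7 libraries were set against that of Pik3r5. The measure was the root mean square difference of log2 CPM, each centred on its mean. Features with only a running number, or with a predicted-gene or clone name, are not named here. Some of them may lie nearer than the genes below. Of the named genes, Ffar2, which encodes a short-chain fatty acid receptor, was nearest at 0.202. It had 39.1, 48.2 and 31.6 CPM in cKO, against 67.8, 109, 87.0 and 98.2 CPM in WT. The water channel gene Aqp4 followed at 0.216, with 29.2, 37.7 and 27.7 CPM in cKO, against 53.7, 79.7, 55.1 and 52.6 CPM in WT. Further down were the zinc finger gene Zfp992 (0.224), the protocadherin gene Pcdhga9 (0.267), the ribosomal pseudogene Rps27a-ps2 (0.272), whose reads may be shared with near-identical copies, the lysosomal membrane protein gene Gpr137b (0.281), Lrrc39 (0.288) and the Schlafen gene Slfn5 (0.310). All 8 were lower in every cKO library, which follows from the likeness. Ranked among all 15501 features, Pik3cg came nearest of the other subunit genes, at rank 599 (0.475). Pik3r1 was at rank 2723, and Pik3r6, the neighbour and paralog, at rank 9366.

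Signalling inputs of class IB, namely G protein beta and gamma subunits and Ras proteins, passed the test in neither direction. Of 13 genes, 12 were tested, 0 passed with edgeR in either direction (0 also at an unadjusted p under 0.05), and the median log2 fold change was 0.02. The 3 most abundant per length were Gnb2 with 419 ± 49.1 CPM in cKO and 414 ± 21.8 CPM in WT, Gnb1 with 399 ± 18.3 CPM in cKO and 391 ± 14.4 CPM in WT, and Gng5 with 120 ± 11.1 CPM in cKO and 115 ± 8.30 CPM in WT. Groups overlapped for all 3. DESeq2 and limma-voom also called 0 genes of this list and of the 4 lists that follow.

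Of the 11 adaptors and regulators listed for class IA, 0 passed with edgeR in either direction (1 at an unadjusted p under 0.05, where 1.38% of all tested features were) and the median log2 fold change was −0.07. The most abundant per length were Crk with 160 ± 9.59 CPM in cKO and 164 ± 7.93 CPM in WT, the insulin receptor substrate gene Irs2 with 129 ± 17.9 CPM in cKO and 139 ± 8.30 CPM in WT, and the docking protein gene Gab1 with 90.2 ± 8.65 CPM in cKO and 94.6 ± 5.96 CPM in WT. Cblb, an E3 ubiquitin ligase, was named after its values were seen as the only 1 of the 11 whose groups did not overlap, where 2.72% of all tested features did not. It had 26.2 ± 1.20 CPM in cKO and 30.4 ± 1.58 CPM in WT, a log2 difference of −0.22 (SE 0.0873) that edgeR listed at an unadjusted p of 0.0343 and that did not pass after adjustment (adjusted p = 1.00).

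Downstream of PIP3, the 27 effector genes had 0 edgeR calls in either direction (0 also at an unadjusted p under 0.05) and a median log2 fold change of −0.06. Akt1, a kinase gene that had the highest level per length of the list, had 443 ± 18.8 CPM in cKO and 436 ± 14.0 CPM in WT, and Akt2 164 ± 2.88 CPM in cKO and 156 ± 4.51 CPM in WT. Pdpk1, the kinase that activates Akt, had 80.4 ± 14.6 CPM in cKO and 86.7 ± 8.43 CPM in WT, and Mtor 57.3 ± 11.3 CPM in cKO and 62.0 ± 10.3 CPM in WT. The forkhead factor gene Foxo4 had 74.7 ± 7.39 CPM in cKO and 77.8 ± 4.52 CPM in WT. Prex1, a Rac activator that binds both PIP3 and G protein beta-gamma subunits, had 58.7 ± 5.51 CPM in cKO and 62.2 ± 5.04 CPM in WT. Groups overlapped for all 6. Groups did not overlap for 1 of the 27 effectors, where 2.72% of all tested features did not. This was Btk, a leukocyte kinase named after its values were seen, with 3.19, 1.83 and 1.77 CPM in cKO, against 1.56, 1.73, 1.68 and 1.48 CPM in WT (edgeR adjusted p = 1.00).

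Of the 10 phosphatases that remove phosphates from phosphoinositides, 0 passed with edgeR (0 also at an unadjusted p under 0.05) and the median log2 fold change was −0.01. Inpp5d, the SHIP phosphatase of blood cells, had 11.5 ± 1.81 CPM in cKO and 12.3 ± 0.170 CPM in WT, its paralog Inppl1 126 ± 10.2 CPM in cKO and 125 ± 5.42 CPM in WT, and Mtmr2 74.4 ± 4.48 CPM in cKO and 77.4 ± 4.79 CPM in WT. The 5 class II and III genes also had 0 calls with edgeR, 0 of them listed at an unadjusted p under 0.05, and a median of −0.08. Pik3c3, the class III kinase of autophagy and endosomes, had 39.1 ± 1.82 CPM in cKO and 38.4 ± 2.03 CPM in WT, its partner Pik3r4 36.2, 40.0 and 40.8 CPM in cKO, against 45.6, 40.0, 42.6 and 41.3 CPM in WT, and the class II gene Pik3c2a 75.3 ± 22.5 CPM in cKO and 79.5 ± 13.6 CPM in WT. Groups overlapped for each of these 6 genes.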

How the data were processed

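For 3 cKO and 4 WT libraries the authors deposited raw counts of reads in 1 table, as whole numbers that are not normalized. The submitters' processing notes name HISAT2, StringTie and featureCounts, with mm39 as the build. Which tool did what, with which version and settings, was not given in the sources used here. Libraries were made from poly-T-selected RNA with NEBNext Ultra reagents, per the labels' protocols, and no step kept the strand. Of 27138 features, 315 carry only a running number (0.206% of counts). Column names gave the group and replicate of each sample, and 0 columns were left unused. They also carry a 7 for WT replicate 4 and a 6 for the other 6 libraries. What this number means is not stated, so it was not used as a batch.

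Tests used edgeR 4.0.16 (R 4.3.3): filterByExpr left 16910 features, TMM factors were 0.952 to 1.04, and glmQLFit (robust) and glmQLFTest were run with the group as the only term. Features passed at an adjusted p under 0.05 (Benjamini-Hochberg). The common biological coefficient of variation was 0.218. Profiles and spreads used log2 CPM with a prior count of 2. DESeq2 1.42.0 and limma-voom (limma 3.58.1) were alternatives, with other scalings, other filters and each library left out in turn. The chi-square per degree of freedom was 11.1 to 50.8 over pairs of libraries, so none was taken as a repeat of another.

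Exon lengths, gene order and overlaps came from GENCODE M21 on GRCm38, another build than mm39, and upstream sequences from RefSeq on GRCm38.p6. Levels per length are CPM divided by kilobases of merged exons. The members and lists were chosen with earlier results of these data known. Genes named were the 9 subunits, the target, the 3 most abundant per length in each pathway list with Inpp5d, Akt1, Akt2, Pdpk1, Mtor and Prex1, the nearest 2 tested genes on each side of Pik3r5 besides Pik3r6, and the 8 genes most like Pik3r5 at a mean of at least 1 CPM. The 8 genes most like Pik3r5 leave out features with only a running number or with a predicted-gene or clone name. Cell type markers come from lists. For 2 further genes that this rule names, no result is given.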

Additional observations from a re-analysis of the deposited data

How the results depend on the processing

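The log2 fold change of Pik3r5 was negative in every fit run: −1.17 to −1.0 with each library left out in turn, −1.09 to −1.06 under the other scalings, filters and tools, and −0.94 without both cKO replicate 1 and WT replicate 4. Pik3r5 was chosen for this difference and its groups did not overlap, so a turn of sign was hardly possible. The constant sign is therefore no evidence about the gene. Counts of calls over all features were few and unstable. edgeR called 1 feature, against 0 with library totals, 0 when scaled by DESeq2 size factors, 0 without robust estimation, 0 among features of at least 1 CPM in 3 libraries, 4 without a filter and 13 with DESeq2, and leaving out each library in turn gave 0 to 3. limma-voom also called 1, as did edgeR without both cKO replicate 1 and WT replicate 4. The main edgeR call was higher in cKO, whereas 11 of the 13 DESeq2 calls were lower and 2 higher. The direction of 6 subunit genes with small differences turned under some settings, and none of them passed the test in any. With each library left out in turn, the log2 fold change ran from −0.11 to 0.068 for Pik3ca, −0.038 to 0.15 for Pik3cb, −0.28 to 0.13 for Pik3cd, −0.16 to 0.082 for Pik3r1, −0.0053 to 0.92 for Pik3r2 and −0.21 to 0.14 for Pik3r6. Without both cKO replicate 1 and WT replicate 4 it was 0.046 for Pik3ca, 0.028 for Pik3r1 and 0.048 for Pik3r6. The cause of these turns was not tested. Groups share replicate numbers, and deviations from the group means correlated at 0.284, 0.419 and 0.0597 between same-numbered libraries. cKO replicates 1 and 2 each correlated best with the WT library of their own number. cKO replicate 3 correlated best with WT replicate 2 (0.296). These values do not settle whether the numbers pair animals. The labels do not say that they do, so the main fit did not use them as pairs. With the replicate number as a block, edgeR called 13 features, none of the 9 subunit genes among them, and the log2 fold change was −0.018 for Pik3cb, 0.029 for Pik3cd, 0.085 for Pik3r6 and −1.02 for Pik3r5. With the length of the longest transcript in place of merged exons, 5 of the 9 genes kept their rank by level per length. At 51 to 180 counts per library for Pik3r5 and Pik3r6, depth limits what can be said of differences in these genes.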
